A study of Homo sapiens with 16 samples.

Results

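The Notch pathway was examined through 10 genes in 2 breast cancer cell lines in which Polycomb repressive complex 2 (PRC2) had been perturbed. The genes were 3 receptors (NOTCH1, NOTCH2 and NOTCH3), 3 ligands (JAG1, JAG2 and DLL1) and 4 genes switched on by Notch signalling (HES1, HEY1, HEY2 and NRARP), out of 18417 genes represented on the arrays by a transcript cluster with a single symbol. They were chosen by name with earlier results of these data known, so the shares over all clusters set beside them are a description. Each had exactly 1 such cluster, and that cluster gave its value. Total RNA was measured on 16 Affymetrix Human Gene 1.0 ST arrays in 8 groups of 2. In HCC70, a basal-like breast cancer line, the groups were cells stably infected with shRNA against EZH2 (shEZH2), with shRNA against EED (shEED), with an EZH2 cDNA vector, with the empty plKO Puro vector, or with scrambled shRNA, the last as 2 sets of duplicates called a and b. In MDA-MB-468, another basal-like line, they were cells with shEZH2 and cells with scrambled shRNA. All groups had been exposed to virus and selected with puromycin. The labels name no hairpin sequence and do not say how many hairpins were used per target. The EZH2 cDNA arrays are labelled fip EZH2, and whether that vector shares a backbone with plKO Puro is not stated. EZH2 is the catalytic subunit of PRC2, the complex that silences genes by methylating histone H3, and EED is the core subunit that binds the methylated mark. The labels do not say which scrambled set belongs to which HCC70 knockdown, and both sets together (4 arrays) served as the control of both.

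Notch receptors are membrane proteins that are cut after a ligand on a neighbouring cell binds them. The freed intracellular part enters the nucleus and joins the DNA-binding protein RBPJ and a MAML coactivator to activate genes, among them the HES and HEY families of repressors. In the mammary gland the pathway is known for its part in the choice and upkeep of luminal cells, and JAG1 is often high in basal-like tumours.

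RBPJ binds a short DNA motif, given here as GTGGGAA with the shorter core TGGGAA. It was searched for on both strands in RefSeq promoter windows (GRCh38.p14, 250 bases before to 50 bases after the gene's start), which were found for 8 of the 10 genes; DLL1 and HEY1 were not among them. HES1 and HEY2 were the 2 of these 8 genes with a match, and their windows are shown to 30 bases after the start because both genes changed after EED knockdown, in opposite directions. Capitals mark the motif on either strand. The HES1 window lies at chr3:194135898-194136177 and the HEY2 window at chr6:125749382-125749661, both on the plus strand.
HES1: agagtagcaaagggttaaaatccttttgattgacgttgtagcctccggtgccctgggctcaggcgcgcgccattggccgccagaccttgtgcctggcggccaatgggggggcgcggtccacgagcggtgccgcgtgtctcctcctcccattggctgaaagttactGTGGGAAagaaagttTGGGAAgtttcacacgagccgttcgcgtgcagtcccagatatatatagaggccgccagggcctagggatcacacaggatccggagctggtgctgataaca
HEY2: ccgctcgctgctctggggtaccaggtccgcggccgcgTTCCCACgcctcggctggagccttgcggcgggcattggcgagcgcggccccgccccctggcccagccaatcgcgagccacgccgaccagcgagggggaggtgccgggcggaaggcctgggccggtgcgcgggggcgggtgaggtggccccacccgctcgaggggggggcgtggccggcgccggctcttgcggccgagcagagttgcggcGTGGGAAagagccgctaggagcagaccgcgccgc
With the start counted as base 1, HES1 held GTGGGAA from -85 to -79 and the shorter TGGGAA from -70 to -65. HEY2 held GTGGGAA on the minus strand from -213 to -207 and on the plus strand from -4 to 3. GTGGGAA was present in 6.25% of all 35114 promoter windows of this length and present at least 2 times in 0.248% of them, and TGGGAA, which every GTGGGAA contains, was present in 24.0%. A match is a run of letters and not a measured binding site. The 8 windows were rich in CpG dinucleotides, with 21 to 46 each (median 39.5) against a median of 14 over all windows, and their GC content ran from 59% to 79.7% against a median of 58.7%. The E-box motif CACGTG, the kind bound by many basic helix-loop-helix proteins, was found in none of the 8 and in 7.26% of all windows. The motif CACGCG, a preferred site of HES proteins, was found in 4 of the 8 (JAG1, JAG2, HES1 and NRARP) and in 11.4% of all windows. CACGCG itself contains CpG dinucleotides, in which the 8 windows were rich, and the share over all windows is not matched for this.

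All values that follow are log2 signals, on which a difference of 1 is a doubling of signal, and levels of different genes are not set against each other. A cluster was tested when at least 2 arrays reached a log2 signal of 6, called the floor here, which 16175 of 33297 clusters did and 8 of the 10 genes did. Changes are the first-named group minus its control with the standard error (SE) from limma, and a gene is said to have risen or fallen when its Benjamini-Hochberg adjusted p in limma over all tested clusters was under 0.05. Array medians ran from 5.37 to 5.53, and duplicates correlated at r = 0.994 to 0.997. Nothing in the labels says that duplicates were separate cultures, so the p-values rest on duplicate spread that may be purely technical. Epithelial markers were above the floor in every group (6 of 6 genes, group means 9.27 to 12.6), as were the 3 basal-like markers with a cluster. ESR1 and PGR were below it, while ERBB2 was above it. Of 12 markers of other cell types with a cluster, 3 (CD68, COL1A1 and MBP) were above the floor, the summed level of the 12 ran from 58.2 to 63.4 over the groups, and PTPRC, CD3E and PECAM1 were below it throughout. The targeted genes followed the labels in the knockdowns. EZH2 was at 8.50 and 8.58 in HCC70 shEZH2 cells, against a mean of 10.04 ± 0.04 (SD, n = 4) in the scrambled arrays (2.83-fold lower, adjusted p = 7.02e-08), and at 8.39 and 8.48 in MDA-MB-468 shEZH2 cells, against 10.07 and 10.14 in scrambled cells (3.19-fold lower, adjusted p = 2.56e-07). EED was at 7.54 and 7.49 in shEED cells, against 8.31 to 8.77 in the scrambled arrays (2.02-fold lower, adjusted p = 1.35e-05), and EZH2 fell there by 0.20 (adjusted p = 0.028), a call lost under 9 of 16 alternatives, among them leaving out any 1 of the 6 arrays (adjusted p up to 0.203). In the EZH2 cDNA cells EZH2 was at 10.20 and 10.27, against 9.94 and 9.94 with empty vector, a difference of 0.29 ± 0.07 that did not pass (adjusted p = 0.0961).

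**Figure D1:**
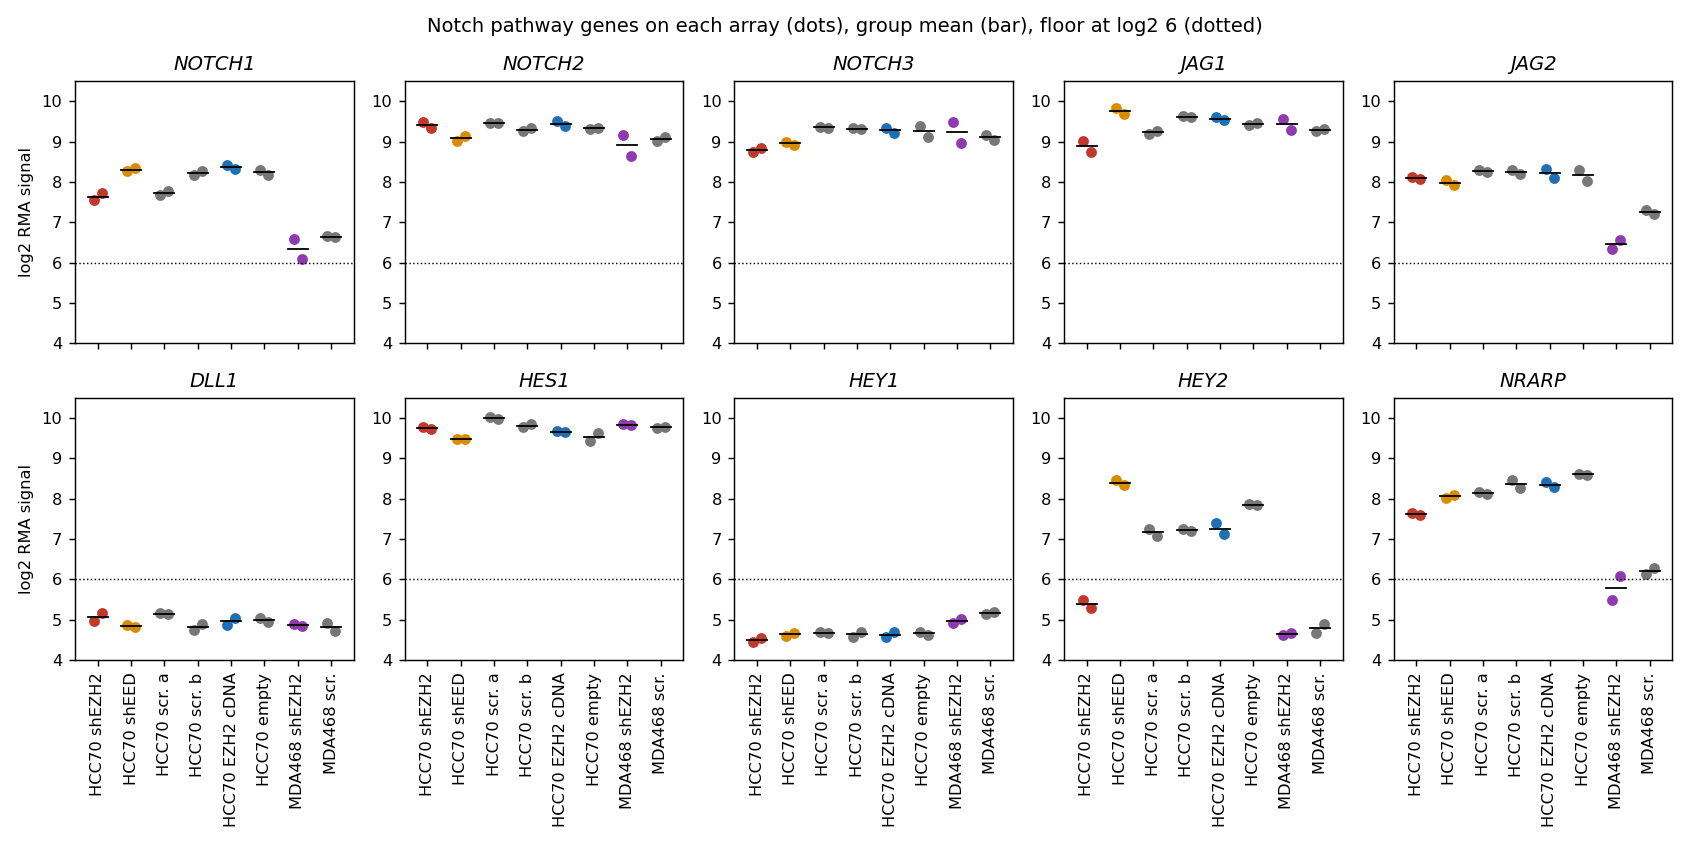
Log2 RMA signal (vertical axes) of each of the 10 Notch genes in the 8 groups (horizontal axes), with 1 point per array, a bar at the group mean and a dotted line at the log2 floor of 6. HEY2 spans the widest range, with group means from 4.65 to 8.40, while all DLL1 and HEY1 arrays lie below the floor.

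After EZH2 knockdown in HCC70, 4 of the 8 tested Notch genes fell and 0 rose: HEY2, NRARP, JAG1 and NOTCH3. Over all tested clusters 18.8% were called in this comparison, 9.74% lower and 9.1% higher. The median change of the 8 genes was -0.44, against 0.0038 over all tested clusters. The target HEY2, a repressor best known from heart and vessel development, moved furthest, and the receptors NOTCH1 and NOTCH2 did not pass the test.

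Among the receptors, NOTCH3 was at 8.73 and 8.85 in shEZH2 cells, against 9.37 and 9.34 in scrambled set a and 9.33 and 9.31 in set b. All knockdown arrays lay below all 4 control arrays, and the change was -0.55 ± 0.12 (adjusted p = 0.00957). Without shEZH2 replicate 1 it was -0.49 with an adjusted p of 0.0596. NOTCH1 was at 7.55 and 7.72, against 7.69 and 7.77 in set a and 8.17 and 8.27 in set b. Here the knockdown arrays overlapped set a and lay below set b, and the change of -0.34 ± 0.12 did not pass (adjusted p = 0.0646, 95% interval -0.60 to -0.08). Against set a alone NOTCH1 changed by -0.09, and against set b alone by -0.59 (adjusted p = 0.008). NOTCH1 passed under 4 of 16 alternatives, set b among them. NOTCH2 was at 9.47 and 9.34, overlapping the controls at 9.25 to 9.47, with a change of 0.03 (adjusted p = 0.899).

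Of the ligands, JAG1 was at 9.02 and 8.75 in shEZH2 cells, against 9.19 and 9.27 in set a and 9.62 and 9.61 in set b. Both knockdown arrays were below every control array, and JAG1 fell by 0.54 ± 0.09 (adjusted p = 0.00188). Its change was -0.34 against set a, which did not pass (adjusted p = 0.0589), and -0.73 against set b. JAG2 was at 8.13 and 8.07, just under the control range of 8.19 to 8.30, and its change of -0.16 did not pass (adjusted p = 0.309). DLL1, a ligand of the Delta type, stayed between 4.72 and 5.16 on all 16 arrays, below the floor, and was not tested.

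Among the target genes, HEY2 was at 5.48 and 5.30 in shEZH2 cells, against 7.25 and 7.08 in set a and 7.24 and 7.20 in set b. The groups were far apart and the control sets were close to each other. HEY2 fell by 1.80 ± 0.10, or 3.49-fold (adjusted p = 3.42e-07), and because the knockdown arrays were below the floor the change may be understated. The change was -1.77 against set a and -1.83 against set b. NRARP, which encodes a small ankyrin-repeat protein that dampens Notch signalling, was at 7.64 and 7.59, against 8.17 and 8.11 in set a and 8.45 and 8.26 in set b. Again no knockdown array reached a control array, and NRARP fell by 0.63 ± 0.13 (adjusted p = 0.00567). HES1, a repressor widely used as a readout of the pathway, was at 9.78 and 9.71, against 10.03 and 9.97 in set a and 9.76 and 9.85 in set b, overlapping set b, and its change of -0.16 ± 0.07 did not pass (adjusted p = 0.139). HEY1 stayed between 4.44 and 5.19 on all 16 arrays, below the floor, and was not tested.

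After EED knockdown in HCC70, HEY2 and JAG1 rose while HES1 and NOTCH3 fell, 4 of the 8 tested genes. Over all tested clusters 27.6% were called, 16.9% higher and 10.7% lower. The median change of the 8 genes was -0.23, against 0.03 over all tested clusters. The shEED and shEZH2 comparisons share their 4 control arrays.

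HEY2 was at 8.47 and 8.33 in shEED cells, against 7.08 to 7.25 in the 4 control arrays. Every knockdown array was at least 1 log2 unit above every control array, and HEY2 rose by 1.21 ± 0.10, or 2.31-fold (adjusted p = 5.86e-06). HES1 was at 9.47 and 9.48, against 10.03 and 9.97 in set a and 9.76 and 9.85 in set b. All shEED arrays lay below all control arrays, and HES1 fell by 0.43 ± 0.07 (adjusted p = 0.000796). NRARP was at 8.02 and 8.10, just under the control range of 8.11 to 8.45, and its change of -0.19 did not pass (adjusted p = 0.31). Of the tested targets, HEY2 was thus higher and HES1 lower in shEED cells.

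JAG1 was at 9.84 and 9.68 in shEED cells, against 9.19 and 9.27 in set a and 9.62 and 9.61 in set b. It lay above all controls but close to set b, and it rose by 0.34 ± 0.09 against both sets (adjusted p = 0.0175). Against set b alone the change was 0.14 (adjusted p = 0.44) and against set a alone 0.53. Without shEED replicate 1 it was 0.26 (adjusted p = 0.177), and without replicate 1 of scrambled set a it was 0.32 (adjusted p = 0.0502). JAG2 was at 8.05 and 7.92, below the control range of 8.19 to 8.30, with a change of -0.27 that did not pass (adjusted p = 0.0638). It passed under 4 of 16 alternatives, among them the replicate number as a block (adjusted p = 0.0472 in limma).

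NOTCH3 was at 8.99 and 8.91 in shEED cells, against 9.31 to 9.37 in the control arrays. The groups did not overlap, and NOTCH3 fell by 0.38 ± 0.12 (adjusted p = 0.0377). That call was lost when any 1 of the 6 arrays was left out (changes -0.42 to -0.35), against set b alone and without the filter (adjusted p = 0.0722). NOTCH1 was at 8.27 and 8.35, against 7.69 and 7.77 in set a and 8.17 and 8.27 in set b, a change of 0.33 that did not pass (adjusted p = 0.0576). It was 0.58 above set a (adjusted p = 0.00636) and 0.08 above set b, and it passed under 5 of 16 alternatives, set a among them. NOTCH2 was at 9.01 and 9.14, below the control range, with a change of -0.30 that did not pass (adjusted p = 0.0719) but passed under 4 of 16 alternatives. A second cluster, which NOTCH2 shares with NOTCH2NLA and NOTCH2NLB, changed by -0.06 (adjusted p = 0.543 in limma).

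**Figure D2:**
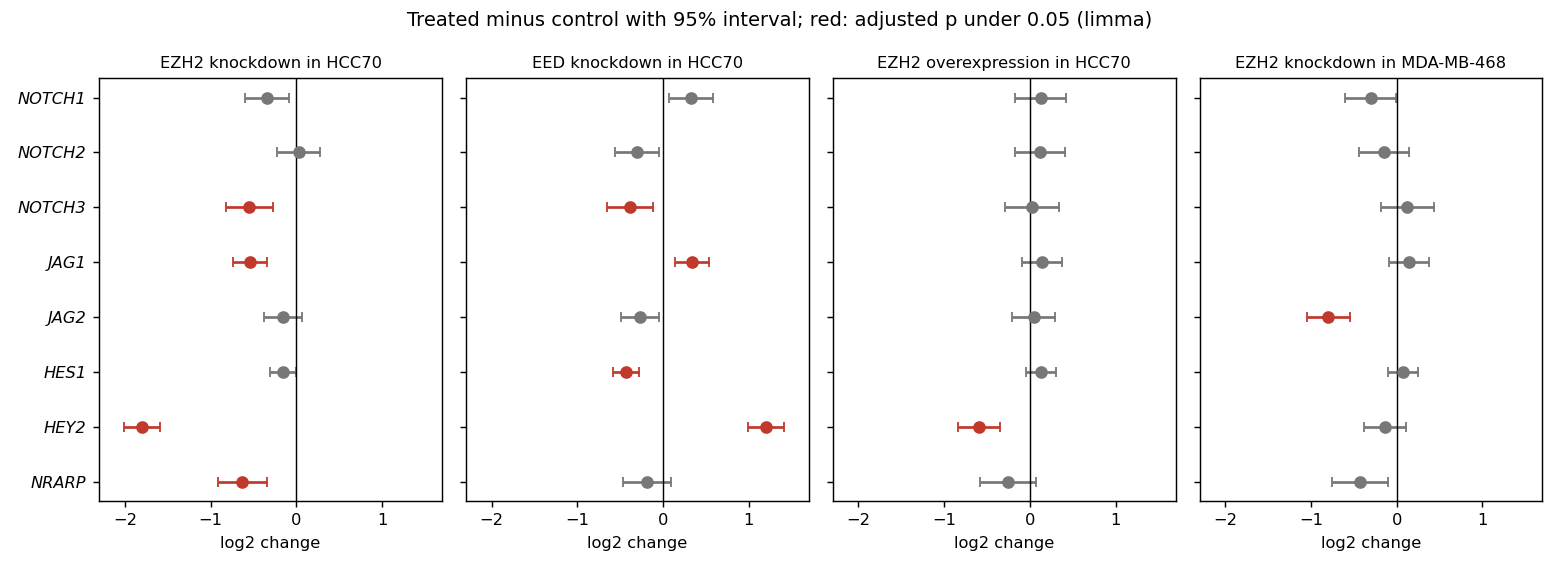
Log2 change (horizontal axis) of the 8 tested Notch genes (rows) in the 4 treatment comparisons (panels), each as treated minus control with its 95% interval from limma; red points passed an adjusted p under 0.05. HEY2 lies at -1.80 after EZH2 knockdown and at 1.21 after EED knockdown in HCC70, and JAG2 at -0.80 is the called gene in MDA-MB-468.

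Set directly against each other, shEZH2 and shEED cells differed in 5 of the 8 tested genes, with HES1 higher and HEY2, JAG1, NOTCH1 and NRARP lower in shEZH2 cells. Over all tested clusters 32% were called, 13.1% higher and 18.8% lower. This comparison uses no scrambled array, and it takes no account of how scrambled sets a and b differ. Set a minus set b was -0.49 for NOTCH1, -0.39 for JAG1 and -0.21 for NRARP. It was 0.19 for HES1 and -0.06 for HEY2. Those of NRARP, HES1 and HEY2 did not pass (adjusted p = 0.323, 0.105 and 0.741 in limma). NOTCH1 changed by -0.09 in shEZH2 cells against set a and by 0.08 in shEED cells against set b. With the sets swapped it changed by -0.59 and 0.58. Whether shEZH2 and shEED cells carry the same set difference was not tested. HEY2 averaged 5.39 ± 0.13 in shEZH2 cells and 8.40 ± 0.10 in shEED cells (SD, n = 2 each), a difference of -3.01 ± 0.11, or 8.04-fold (adjusted p = 3.53e-08 in limma), which may be understated because the shEZH2 arrays were below the floor. JAG1 averaged 8.88 ± 0.20 in shEZH2 cells and 9.76 ± 0.11 in shEED cells (SD, n = 2 each), a difference of -0.88 ± 0.11 (adjusted p = 0.00011 in limma). NOTCH1 differed by -0.67 ± 0.14 (adjusted p = 0.00317), with no overlap between the groups. NRARP differed by -0.44 (adjusted p = 0.0413), a call lost without any 1 of the 4 arrays, without the filter (adjusted p = 0.074) and with quantile normalization (adjusted p = 0.0709). HES1 differed by 0.27 (adjusted p = 0.0209), a call lost without shEZH2 replicate 1, without either shEED array, with median-centred arrays (0.20, adjusted p = 0.161) and with the 4 arrays alone (adjusted p = 0.0942).

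The 2 scrambled sets, which carry the same label, differed from each other in 2 of the 8 genes. NOTCH1 was at 7.69 and 7.77 in set a and at 8.17 and 8.27 in set b, a difference of -0.49 ± 0.14 (adjusted p = 0.0227). JAG1 was at 9.19 and 9.27 in set a and at 9.62 and 9.61 in set b, a difference of -0.39 ± 0.11 (adjusted p = 0.0221). By arithmetic, the same differences separate the knockdown changes taken against set a and against set b. Over all tested clusters 22.7% were called, 15.3% lower and 7.41% higher in set a, and both calls were lost when any 1 of the 4 arrays was left out (NOTCH1 -0.54 to -0.44, JAG1 -0.43 to -0.35). The EED gene was itself higher in set a by 0.38 ± 0.11 (adjusted p = 0.0219). HEY2 differed by -0.06 between the sets (95% interval -0.30 to 0.19), against changes of -1.80 and 1.21 in the knockdowns.

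**Figure D3:**
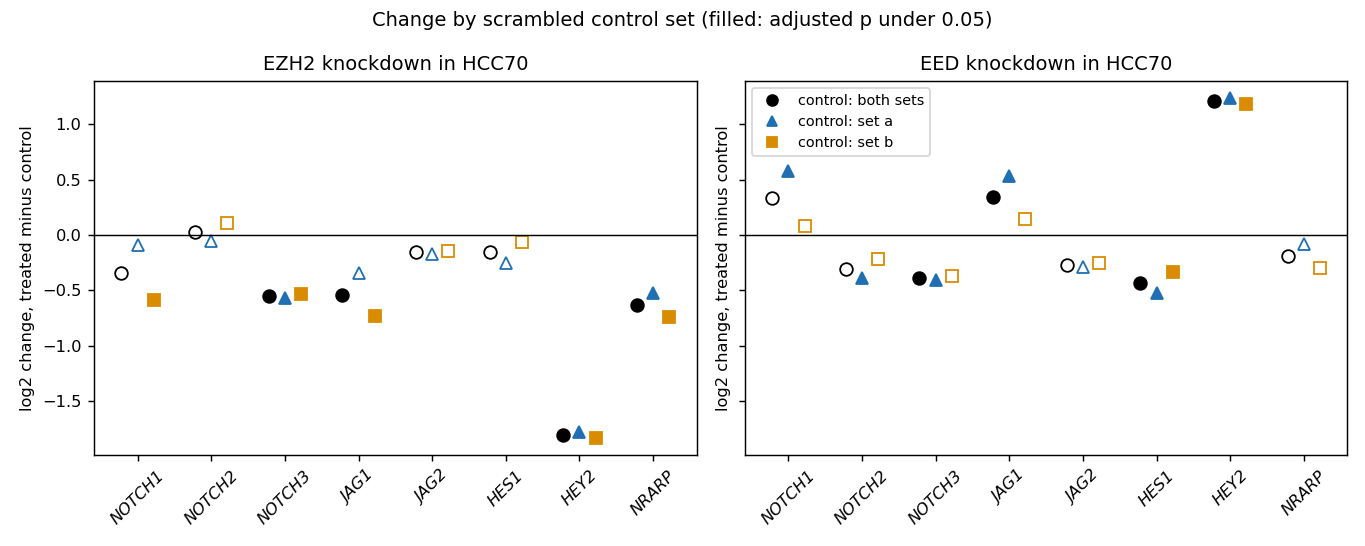
Log2 change (vertical axis) of the 8 tested Notch genes (horizontal axis) after EZH2 knockdown and EED knockdown in HCC70 against scrambled set a, set b and both sets, as estimates from limma; filled symbols passed an adjusted p under 0.05. HEY2 keeps its change with each control (-1.77 and -1.83 after EZH2 knockdown), whereas NOTCH1 after EZH2 knockdown lies at -0.09 against set a and at -0.59 against set b.

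With EZH2 cDNA in HCC70, 1 of the 8 tested genes changed: HEY2 was at 7.39 and 7.13 with EZH2 cDNA, against 7.87 and 7.83 with empty vector. The groups did not overlap, and HEY2 fell by 0.59 ± 0.11, or 1.51-fold (adjusted p = 0.0316). Over all tested clusters 0.977% were called, 0.909% higher and 0.068% lower. The call was lost without any 1 of the 4 arrays (-0.72 to -0.46), without the filter, with median-centred arrays and with the 4 arrays alone (adjusted p = 0.29). The empty-vector arrays stood above the scrambled arrays (7.08 to 7.25) in HEY2, and against the scrambled arrays the EZH2 cDNA cells differed by 0.07 (adjusted p = 0.726), a control added after the values were seen. Since a shared backbone is not stated, an effect of the cDNA and a difference of vector could not be told apart. Against empty vector the other 7 genes changed by -0.26 to 0.14 with adjusted p-values of 0.625 or more. NRARP had the largest of these, at 8.41 and 8.28 with EZH2 cDNA, against 8.61 and 8.58 with empty vector. With the scrambled arrays as the control, HES1 was the called gene instead, at -0.25 (adjusted p = 0.0423 in limma). In that setting 1536 of all tested clusters were called.

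In MDA-MB-468, EZH2 knockdown changed 1 of the 8 tested genes. JAG2, a ligand of the Jagged type like JAG1, was at 6.34 and 6.57 in shEZH2 cells, against 7.30 and 7.20 in scrambled cells. The groups lay well apart, and JAG2 fell by 0.80 ± 0.12, or 1.74-fold (adjusted p = 0.00266), a call lost when the 4 arrays were fitted alone (adjusted p = 0.109). Over all tested clusters 8.3% were called, 5.57% lower and 2.73% higher. The median change of the 8 genes was -0.14, against -0.02 over all tested clusters.

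HEY2 was below the floor in this line, at 4.62 and 4.67 in shEZH2 cells and at 4.68 and 4.89 in scrambled cells. It was tested only because HCC70 arrays reached the floor. Its change of -0.14 did not pass (adjusted p = 0.477 in limma), and a fall could not be seen at that level. JAG1 was at 9.55 and 9.30 in shEZH2 cells, against 9.26 and 9.30 in scrambled cells, with a change of 0.14 (adjusted p = 0.437). HES1 was at 9.84 and 9.83, against 9.75 and 9.77, with a change of 0.07 (adjusted p = 0.62). The shEZH2 duplicates stood apart in the receptors. NOTCH1 was at 6.60 and 6.08 in shEZH2 cells, against 6.65 and 6.63 in scrambled cells (change -0.30, adjusted p = 0.187). NOTCH2 was at 9.17 and 8.65 in shEZH2 cells, against 9.02 and 9.11 in scrambled cells (change -0.15, adjusted p = 0.516). NOTCH3 was at 9.48 and 8.97 in shEZH2 cells, against 9.16 and 9.05 in scrambled cells (change 0.12, adjusted p = 0.63). In each receptor replicate 1 was the higher array. Without it NOTCH1 changed by -0.56, NOTCH2 by -0.41 and NOTCH3 by -0.14. Without shEZH2 replicate 2 the changes were -0.04, 0.11 and 0.38 in the same order. NRARP was at 5.48 and 6.07, against 6.12 and 6.29, a change of -0.43 that did not pass (adjusted p = 0.099). Its change was -0.72 without shEZH2 replicate 2 and -0.13 without shEZH2 replicate 1.

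The effect of EZH2 knockdown differed between HCC70 and MDA-MB-468 in 4 of the 8 genes by the interaction contrast, where 13.4% of all tested clusters were called, 8.13% higher and 5.3% lower in HCC70. The change of HEY2 in HCC70 minus that in MDA-MB-468 was -1.66 ± 0.15 (adjusted p = 5.18e-05 in limma). HEY2 was below the floor in MDA-MB-468, where a fall could not be seen, so its call here does not compare 2 measured effects. For JAG1 the difference was -0.68 ± 0.14 (adjusted p = 0.00972), from -0.54 in HCC70 and 0.14 in MDA-MB-468. For JAG2 it was 0.64 ± 0.15 (adjusted p = 0.0188), from -0.16 in HCC70 and -0.80 in MDA-MB-468. The 2 Jagged ligands thus differed between the lines in opposite directions. For NOTCH3 it was -0.67 ± 0.19 (adjusted p = 0.0371), from -0.55 in HCC70 and 0.12 in MDA-MB-468, and this call was lost under 11 of 20 alternatives, among them each left-out array (-0.73 to -0.41) except MDA-MB-468 shEZH2 replicate 2, without which the difference was -0.93 (adjusted p = 0.00409). The JAG2 call was lost without MDA-MB-468 shEZH2 replicate 1 (0.53, adjusted p = 0.0609) or scrambled replicate 1 (0.59, adjusted p = 0.0504), and the JAG1 call with set a as the HCC70 control (-0.49, adjusted p = 0.0533).

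Between the scrambled cells of the lines, 5 of the 8 genes were higher in HCC70 and 0 lower, where 69.2% of all tested clusters were called, 32.1% higher and 37.1% lower. HEY2 averaged 7.19 ± 0.08 in HCC70 (SD, n = 4) and 4.79 ± 0.15 in MDA-MB-468 (SD, n = 2). The difference of 2.41 ± 0.10 (adjusted p = 8.34e-10 in limma) may be understated because MDA-MB-468 was below the floor. HEY2 passed the filter through HCC70 arrays alone, so its call here is not independent of the filter. NRARP averaged 8.25 ± 0.15 in HCC70 (n = 4) and 6.21 ± 0.11 in MDA-MB-468 (n = 2), a difference of 2.04 ± 0.13 (adjusted p = 4.97e-08 in limma). The remaining 3 were a receptor pair and a ligand. NOTCH1 was higher in HCC70 by 1.34 ± 0.12 (adjusted p = 8.97e-07), JAG2 by 1.00 ± 0.10 (adjusted p = 2.5e-06) and NOTCH2 by 0.31 ± 0.12 (adjusted p = 0.0296). The NOTCH2 call was lost without any 1 of 5 of the 6 arrays with set b as the only control (0.23, adjusted p = 0.153) and with median-centred arrays (0.27, adjusted p = 0.08). The second cluster, annotated to NOTCH2 together with NOTCH2NLA and NOTCH2NLB, near-identical copies of part of the gene, went the opposite way to the single-symbol cluster. It was lower in HCC70 by 0.47 ± 0.07 (adjusted p = 9.84e-05 in limma). NOTCH3, JAG1 and HES1 differed by 0.14 to 0.23 and did not pass. HEY1 differed by -0.51 in a fit without the floor (adjusted p = 0.00011), with every array of both lines below log2 6.

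Ordered by level, the 8 groups gave different series for the targets. HEY2 was highest in shEED cells (mean 8.40), then with empty vector (7.85), then with EZH2 cDNA (7.26), scrambled set b (7.22) and set a (7.16). Then came shEZH2 cells (5.39) and last MDA-MB-468 scrambled (4.79) and shEZH2 (4.65) cells. The EZH2 cDNA arrays overlapped set b, and set b overlapped set a. The other neighbours did not overlap, the MDA-MB-468 groups only barely and below the floor. NRARP was highest with empty vector (8.60), and shEZH2 cells were the lowest of the HCC70 groups (7.62), above MDA-MB-468 shEZH2 (5.78) and scrambled (6.21) cells. For NOTCH1 the neighbours from EZH2 cDNA (8.37) through shEED (8.31) and empty vector (8.24) to set b (8.22) overlapped, and so did shEZH2 (7.64) and set a (7.73). The group means of HEY2 spanned 3.75, those of NRARP 2.82 and those of NOTCH1 2.03. Within HCC70 they spanned 3.01, 0.98 and 0.73. The smallest spans among the tested genes were those of NOTCH2 (0.55) and HES1 (0.53).

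The tested genes whose 8 group means followed these 3 most closely were sought among 4138 clusters that spanned at least 1 log2 unit, as a description with no test. HEY2 was most like KIT, a receptor tyrosine kinase that marks luminal progenitors of the breast (Pearson r = 0.982 over 8 groups and 0.971 over the 6 HCC70 groups), and E2F2, a cell cycle transcription factor (0.972 and 0.963). KIT averaged 4.57 in shEZH2 cells, 8.46 in shEED cells, 6.32 in set a and 7.10 in set b, and 6.38 with EZH2 cDNA against 7.61 with empty vector. As with HEY2, its lowest HCC70 mean was in shEZH2 cells and its highest in shEED cells. NRARP was most like SDC1, a heparan sulfate proteoglycan (0.993 and 0.917), and LURAP1L (0.992 and 0.917). NOTCH1 was most like TMOD3, a tropomodulin that caps actin filaments (0.997 and 0.986), and ALDH1A3, a retinaldehyde dehydrogenase (0.996 and 0.970). The difference between the lines, common to many genes, enters every correlation over 8 groups.

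The wider pathway was followed in 62 other genes listed by role, of which 56 had a single-symbol cluster and 47 were tested. After EZH2 knockdown in HCC70, 2 rose and 2 fell (8.51% of the 47, against 18.8% of all clusters). By limma 0 were called among the 8 cleavage genes, the 7 of the nuclear complex and the 5 other HES and HEY genes. The same held for the 3 glycosyltransferases and the 2 other receptors and ligands. At an unadjusted p under 0.05 in limma there were 14 of the 47, against 5229 of 16175 clusters. MYC, a growth regulator and Notch target in T-cell leukaemia, was at 9.25 and 9.18 in shEZH2 cells, against 9.31 and 9.26 in set a and 10.11 and 10.12 in set b. Its fall of 0.48 (adjusted p = 0.000599) thus came with a change of -0.07 against set a and -0.90 against set b. CCND1, which encodes cyclin D1, fell by 0.30 (adjusted p = 0.0128) but changed by 0.03 against set a, and its call was lost without shEZH2 replicate 2. DTX3L, an E3 ubiquitin ligase related to Deltex, rose by 0.37 (adjusted p = 0.00941), a call lost against set b (0.16), with median-centred arrays and without shEZH2 replicate 1. CTBP2, a corepressor, rose by 0.27 (adjusted p = 0.0363), a call lost under 9 of 16 alternatives.

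After EED knockdown 6 of the 47 rose and 9 fell (31.9%, against 27.6% of all clusters). MYC was at 10.40 and 10.43 in shEED cells, against 9.31 and 9.26 in set a and 10.11 and 10.12 in set b, and rose by 0.71 ± 0.07 (adjusted p = 2.47e-05). The change was 1.13 against set a and 0.30 against set b. MAML2, a coactivator of the Notch complex, was at 6.48 and 6.62, against 6.94 to 7.39 in the controls, and fell by 0.61 ± 0.08 (adjusted p = 0.000155). DTX2, a Deltex ubiquitin ligase, was at 6.15 and 6.27, against 6.54 to 7.15, and fell by 0.60 ± 0.10 (adjusted p = 0.000932). In both the shEED arrays lay below every control array. POGLUT1, which adds O-glucose to Notch receptors, rose by 0.51 (adjusted p = 0.00566), a call lost against set b (0.17) and without shEED replicate 2. RBPJ, named after its values were seen because the complex is built on it, rose by 0.36 ± 0.08 (adjusted p = 0.00451), a call lost against set b (0.23, adjusted p = 0.111) and without shEED replicate 1.

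With EZH2 cDNA 0 of the 47 were called by limma (8 had an unadjusted p under 0.05). In MDA-MB-468, 0 rose and 3 fell after EZH2 knockdown (6.38%, against 8.3% of all clusters). ADAM17, a protease that can cut Notch receptors at the cell surface, was at 9.11 and 9.25 in shEZH2 cells, against 9.68 and 9.80 in scrambled cells, and fell by 0.56 ± 0.08 (adjusted p = 0.00297), a call lost when the 4 arrays were fitted alone (adjusted p = 0.145). FBXW7, the ubiquitin ligase subunit that marks active Notch for destruction, was at 6.23 and 6.38, against 6.80 and 7.12, and fell by 0.66 ± 0.14 (adjusted p = 0.0183). The groups of both genes did not overlap, and the FBXW7 call was lost with the 4 arrays alone (adjusted p = 0.147) and without scrambled replicate 2 or shEZH2 replicate 1. TLE4, a Groucho corepressor, fell by 0.38 (adjusted p = 0.0424), a call lost under 6 of 12 alternatives. Between the scrambled cells of the lines, 25 of the 47 were higher and 8 lower in HCC70 (70.2%, against 69.2% of all clusters), and RBPJ, again named after its values were seen, was lower in HCC70 by 1.04 ± 0.08 (adjusted p = 1.88e-07). Between scrambled sets a and b, 5 were higher and 13 lower in set a (38.3%, against 22.7% of all clusters).

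**Figure D4:**
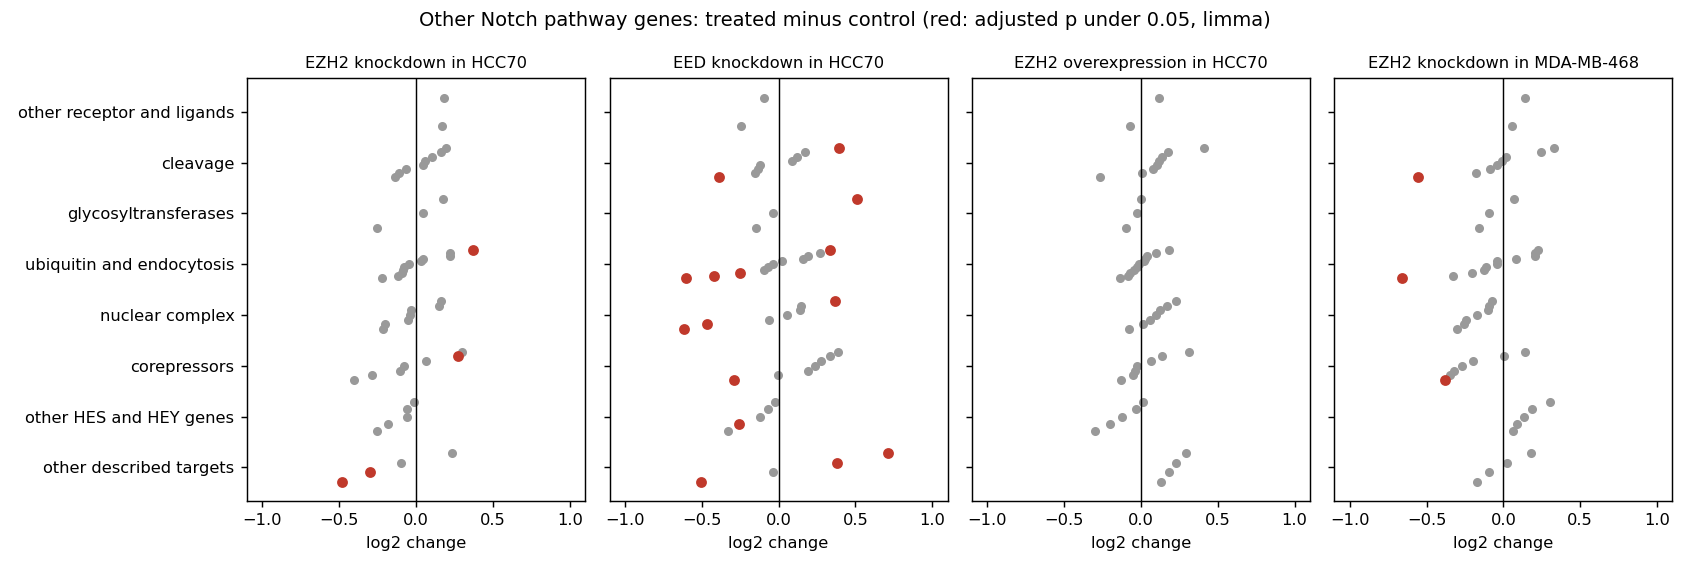
Log2 change (horizontal axes) of the 47 tested other Notch pathway genes, treated minus control, in the 4 treatment comparisons (panels), grouped by role (rows); each point is a gene and red points passed an adjusted p under 0.05 in limma. Red points mark 4 genes (8.51%) after EZH2 knockdown in HCC70, 15 (31.9%) after EED knockdown, 0 with EZH2 cDNA and 3 (6.38%) in MDA-MB-468, beside 18.8%, 27.6%, 0.977% and 8.3% of all tested clusters in the same order.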

How the data were processed

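Total RNA of 16 samples was hybridised to 1 array each. The deposited files hold log2 signals by transcript cluster, made with RMA in Affymetrix Expression Console per the submitters' processing notes; software versions and build: not given in the sources used here. RMA corrects background, normalizes between arrays and summarises probes, and it tends to understate changes of dim clusters. An array gives no read depth, and the 2 arrays per group limit the precision. Scan dates were not used here, so batches could not be tested.

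Of 33297 clusters, 19460 had 1 gene symbol, 1754 several and 12083 none in the platform annotation. From the deposited log2 values, clusters at 6 or more on at least 2 arrays (16175) were fitted with limma 3.58.1 in R 4.3.3 (8 group means, all 16 arrays, lmFit and eBayes, 8 residual and 3.69 prior degrees of freedom). Contrasts were two-sided, adjusted by Benjamini-Hochberg over all tested clusters and called under 0.05. The fit was tested on simulated data. The named genes are the 10 members, EZH2 and EED, up to 4 called genes per treatment from the pathway list, chosen by the size of their change, and the 2 clusters most like each of the 3 members with the widest range. The members and lists were chosen with earlier results of these data known. Alternatives covered the filter, scaling, control sets, replicate block, prior and left-out arrays. Deviations of same-numbered arrays correlated at r = -0.25 to 0.28 over 28 group pairs (median 0.05, 7 over 0.1). The numbers were not used as pairs in the reported fit, and a replicate block was run as an alternative. Promoter windows and names came from RefSeq (GRCh38.p14).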

Additional observations from a re-analysis of the deposited data

Results flagged for a closer look

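In 4 Notch genes, EZH2 knockdown acted differently in HCC70 and MDA-MB-468 by the interaction contrast in limma. The change in HCC70 minus the change in MDA-MB-468 was -1.66 for HEY2, which lay below the floor in MDA-MB-468 in both groups. It was -0.68 for JAG1, whose change in HCC70 was -0.34 against scrambled set a and -0.73 against set b. It was 0.64 for JAG2, which fell in MDA-MB-468 on both arrays. It was -0.67 for NOTCH3, a call lost under 11 of 20 alternatives, with the MDA-MB-468 shEZH2 duplicates at 9.48 and 8.97. Groups of 2 arrays were not searched for single arrays that stand apart.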

How the results depend on the processing

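Duplicates, 2 unassigned control sets and an untested batch structure limit these results, and signals below log2 6 bound what could be seen of HEY2 in MDA-MB-468 and of DLL1 and HEY1. HEY2 passed under every alternative run for the knockdowns in HCC70 (-1.90 to -1.71 for EZH2 and 1.14 to 1.27 for EED). Over 1269 values of single genes under an alternative, 1111 kept direction and side of the threshold, 98 lost the call, 30 gained it and 30 turned sign; the cause was not tested.

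With the replicate number as a block, the members called, with the count over all 16175 clusters in parentheses, were 4 (3227) after EZH2 knockdown and 5 (4663) after EED knockdown in HCC70, 1 (145) with EZH2 cDNA, 1 (1500) in MDA-MB-468, 5 (11262) between the lines at baseline, 2 (3836) between the scrambled sets, 4 (2320) for the difference in effect between lines and 5 (5361) between shEZH2 and shEED; JAG2 after EED knockdown was the added call, and no other call changed direction or side there.

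After EED knockdown 4 of the 8 tested members were called in the reported fit, 7 with single-symbol clusters alone, 7 with the arrays of that comparison alone, 2 with set b and 2 to 3 when 1 array was left out. The 1 member called with EZH2 cDNA became 0 without the filter (limma), 0 with median-centred arrays, 0 with those arrays alone and 0 to 0 when 1 array was left out (1 to 2 members at an unadjusted p under 0.05 in limma). The 1 member called in MDA-MB-468 became 0 with its 4 arrays alone (1 at an unadjusted p under 0.05 in limma) and 1 to 3 when 1 array was left out. Quantile normalization called 8 members between the lines at baseline (5 in the reported fit, 4 to 5 with 1 array left out). With 1 array left out the count was 3 to 4 after EZH2 knockdown in HCC70, 0 to 0 between the scrambled sets (2 to 3 at an unadjusted p under 0.05 in limma), 2 to 4 for the difference in effect between lines and 3 to 4 between shEZH2 and shEED.

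Over all clusters, the 3048 called after EZH2 knockdown in HCC70 became 1837 with set a, 4325 with set b and 2028 without replicate 1 of set b. The 4465 after EED knockdown became 2375 or 2086 without shEED replicate 1 or 2. The 158 with EZH2 cDNA became 88 without the filter, 88 with median centring, 0 with those arrays alone (1405 at an unadjusted p under 0.05 in limma), 1536 with the scrambled control and 14 to 97 without any 1 of its 4 arrays. The 1343 in MDA-MB-468 became 848 without the filter, 21 with its arrays alone, 231 without scrambled replicate 2 and 628 without shEZH2 replicate 1. The 3677 between the scrambled sets became 6269 with their arrays alone and 1604 to 2040 without any 1 of the 4. The 2172 in the difference between lines became 1309 with its arrays alone, 969 without MDA-MB-468 scrambled replicate 2 and 1408 without replicate 2 of set b. The 5169 between shEZH2 and shEED became 3065 with their arrays alone and 3237 or 2926 without shEED replicate 1 or 2. With median-centred arrays the share of calls that were higher was 36.6% against 48.3% after EZH2 knockdown in HCC70, 18.8% against 32.9% in MDA-MB-468, 20.5% (42.6% with quantile normalization) against 32.6% between the scrambled sets and 27.8% against 41.1% between shEZH2 and shEED.

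Signs turned as follows. Median centring gave -0.018 for NOTCH2 after EZH2 knockdown in HCC70, and -0.026 for NOTCH3 and -0.031 for JAG2 between the scrambled sets. Set a as the control gave -0.056 for NOTCH2, 0.030 for CCND1 and -0.12 for EED after EZH2 knockdown in HCC70, -0.053 for JAG1 at baseline and 0.21 for NOTCH1 in the difference between lines. With EZH2 cDNA, quantile normalization gave -0.019 for NOTCH3, and the scrambled control gave -0.058 for NOTCH3, -0.046 for JAG2, -0.25 for HES1, 0.066 for HEY2, 0.096 for NRARP and 0.076 for RBPJ. Leaving out 1 array gave -0.039 to 0.094 for NOTCH2 after EZH2 knockdown in HCC70. With EZH2 cDNA it gave -0.11 to 0.16 for NOTCH3, -0.091 to 0.18 for JAG2 and -0.14 to 0.073 for EED. In MDA-MB-468 it gave -0.41 to 0.11 for NOTCH2 and -0.14 to 0.38 for NOTCH3. Between the scrambled sets it gave -0.022 to 0.083 for JAG2 and -0.14 to 0.030 for HEY2. In the difference between lines it gave -0.30 to 0.22 for NOTCH1, -0.079 to 0.44 for NOTCH2 and -0.50 to 0.092 for NRARP. The mean of several clusters per gene was not run, since each member had 1 single-symbol cluster.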
